A study of Mus musculus with 106 samples.

Results

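The promoters of the mouse Toll-like receptors and of the proteins that carry their signals were read in chromatin immunoprecipitation sequencing (ChIP-seq) peak lists of 2 histone marks. The members were named by role: 12 receptor genes, their co-receptors and chaperone, adaptors, kinases, TRAF proteins, the TAK1 and IKK complexes and the neighbouring cytosolic sensors, 47 genes of the 21911 protein-coding genes with an annotated start site. Acetylation of histone H3 at lysine 27 (H3K27ac) marks active promoters and enhancers, and trimethylation at lysine 4 (H3K4me3) marks promoters. All mice were wild-type C57BL/6J, 12 to 14 weeks old at assignment, and each was either an untreated control or was made diabetic with streptozotocin, a toxin of the pancreatic beta cell, at 42 to 45 mg/kg a day over 5 days. Tissue was taken 6 weeks after the last injection from diabetic mice whose non-fasted blood glucose was above 13.9 mmol/L. Haematopoietic stem cells (HSC) were marrow cells left after depletion with antibodies to CD3, CD4, B220, Ter119 and Gr1, so the fraction also holds progenitors. Bone marrow-derived macrophages (BMDM) were grown for 7 days with L929-conditioned medium and kept in 5 mmol/L glucose. They were studied at rest or after 16 h with lipopolysaccharide (LPS, 100 ng/mL) plus interferon-γ (IFN-γ, 10 ng/mL). Each mark had 6 libraries per group and 35 in all, because the unstimulated diabetic BMDM had 5.

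Toll-like receptors bind microbial products. Some sit at the cell surface and others, which bind nucleic acids, in the endosome, where the chaperone UNC93B1 delivers them. Engaged receptors recruit the adaptor MyD88, which assembles IRAK kinases, TRAF6 and the TAK1 kinase complex to activate IKK and NF-κB, or the adaptor TRIF, which works through TRAF3, TBK1 and RIPK1. LPS is sensed by TLR4 with its co-receptors CD14 and MD-2, so the stimulus used here acts through these members themselves.

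Lists held between 13730 and 277213 peaks and carried no read totals, so the depth behind each list is unknown. Each peak was therefore placed by its rank in its own list, 1 being the peak with the largest −log10 p, and each gene took the best rank of any peak within 1000 bp of any of its start sites. The rank score used for tests is log2(20000/rank), set to 0 for a promoter with no peak among the first 20000 of the list, so that a difference of 1 stands for a rank divided by 2. It is a position in a list and not an amount of the mark. Libraries of one group correlated at 0.726 to 0.935 in H3K27ac and at 0.427 to 0.779 in H3K4me3. The labelled cell types separated in H3K27ac: the summed rank score of 8 macrophage markers ran from 0 to 1.79 in HSC and from 3.63 to 12.0 in unstimulated BMDM, although Adgre1 and Fcgr1 were at 0 in both. The sum over 8 stem and progenitor markers ran from 3.69 to 9.22 in HSC and from 0 to 4.64 in unstimulated BMDM, and that over 4 erythroid markers from 3.04 to 7.63 and from 0.943 to 2.28. The part of such cell mixtures in the differences below was not tested, and in bulk chromatin fewer cells of a type and less of the mark per cell cannot be told apart. In control BMDM, 2 libraries went against the stimulation label. The mean rank score over LPS and interferon response genes was 0.978 in unstimulated library 6, against 0.429 to 0.683 in the other 5 unstimulated libraries, and 0.532 in stimulated library 5, against 0.679 to 0.98 in the other 5 stimulated ones. Some results that rest on these libraries are given with and without control BMDM 5 and 6, and the others only with them. In diabetic BMDM the same score was 0.662 in unstimulated library 6, against 0.325 to 0.506 in the other unstimulated libraries. It was 0.551 in stimulated library 5, against 0.696 to 1.08 in the other stimulated ones. No fit left out both of these diabetic libraries.

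A promoter sequence was matched in the RefSeq table for 36 of the 47 members. The 4 shown are those with the largest called H3K27ac difference between BMDM and HSC among the matched members, since the H3K27ac peaks lie over them. They run 5′ to 3′ from 250 bases before to 50 bases after a RefSeq start site on build GRCm38.p6, and capitals mark every match, on either strand, to the motifs searched.
Map3k7 promoter, chr4:31963857-31964156, + strand: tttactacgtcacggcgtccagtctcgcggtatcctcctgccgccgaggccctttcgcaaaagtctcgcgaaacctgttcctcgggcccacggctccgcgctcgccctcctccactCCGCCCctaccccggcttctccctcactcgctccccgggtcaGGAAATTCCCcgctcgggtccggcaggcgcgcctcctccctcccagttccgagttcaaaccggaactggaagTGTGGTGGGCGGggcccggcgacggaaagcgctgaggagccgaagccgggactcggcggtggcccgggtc
Traf2 promoter, chr2:25546891-25547190, - strand: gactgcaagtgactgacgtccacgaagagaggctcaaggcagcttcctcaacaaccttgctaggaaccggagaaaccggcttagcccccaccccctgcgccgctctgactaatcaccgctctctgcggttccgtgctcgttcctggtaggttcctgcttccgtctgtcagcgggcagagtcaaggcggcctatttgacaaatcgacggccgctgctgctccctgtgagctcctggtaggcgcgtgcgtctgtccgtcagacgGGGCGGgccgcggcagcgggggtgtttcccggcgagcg
Ripk1 promoter, chr13:34002113-34002412, + strand: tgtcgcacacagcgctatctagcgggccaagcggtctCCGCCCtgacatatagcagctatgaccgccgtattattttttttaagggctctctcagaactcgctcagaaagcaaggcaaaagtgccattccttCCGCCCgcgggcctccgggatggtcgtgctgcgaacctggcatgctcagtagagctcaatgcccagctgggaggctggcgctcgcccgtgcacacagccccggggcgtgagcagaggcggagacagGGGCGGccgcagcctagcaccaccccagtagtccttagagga
Traf3 promoter, chr12:111166120-111166419, + strand: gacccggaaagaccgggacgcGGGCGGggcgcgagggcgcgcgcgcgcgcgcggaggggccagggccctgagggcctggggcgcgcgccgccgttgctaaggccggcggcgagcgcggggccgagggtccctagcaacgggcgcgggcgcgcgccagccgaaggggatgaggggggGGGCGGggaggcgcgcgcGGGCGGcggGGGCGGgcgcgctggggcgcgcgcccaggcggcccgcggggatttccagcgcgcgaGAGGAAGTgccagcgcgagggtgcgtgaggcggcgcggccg
The letters searched were GAGGAAGT for PU.1, GGGA and TTCC parted by a pair of any bases for NF-κB, GAAA and GAAA parted likewise for the interferon-stimulated response element, TGANTCA for AP-1, TGTGGT for Runx and GGGCGG for Sp1. Among all 32851 promoter sequences of that length, these occurred in 3.2%, 1.47%, 3.44%, 7.81%, 16.8% and 35.7% respectively. In Map3k7 the capitals are, in order, an Sp1 match, the NF-κB match, and a Runx match directly followed by a second Sp1 match. Traf3 held 4 Sp1 matches and then the PU.1 match, Ripk1 3 Sp1 matches and Traf2 1 Sp1 match. The gene's best H3K27ac peak overlapped the printed stretch in all 35 libraries for Map3k7, Traf2 and Ripk1 and in 33 of 35 for Traf3. A match to letters is a description and not a measured binding site.

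Most members had a ranked H3K27ac peak in every cell state. In H3K27ac, 23 of the 47 promoters (48.9%) were among the first 20000 peaks of all 35 libraries, against 33.7% of all genes, and 4 (8.51%) were in none, against 32.7%. Of the 47, 33 were listed at any rank in every library and 3 in no library. H3K4me3 was closer to the genome as a whole, with 9 members (19.1%) among the first 20000 in every library, against 21.3% of genes, and 7 (14.9%) in none, against 29.0%. The number of members among the first 20000 hardly moved between groups: group medians ran from 34 to 35 in H3K27ac and from 25.5 to 29.5 in H3K4me3. Member peaks were wider in H3K27ac, where the median widths ran from 443 bp at Tlr1 to 2537 bp at Traf3 with a middle value of 1016 bp, than in H3K4me3, where they ran from 244 bp at Tmem173 to 1710 bp at Tab2 with a middle value of 786 bp. For 7 members (Myd88, Tirap, Sarm1, Irak4, Irak3, Ikbkg and Ripk1) the window touched or overlapped that of another gene, so a peak there could count for both genes.

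**Figure D1:**
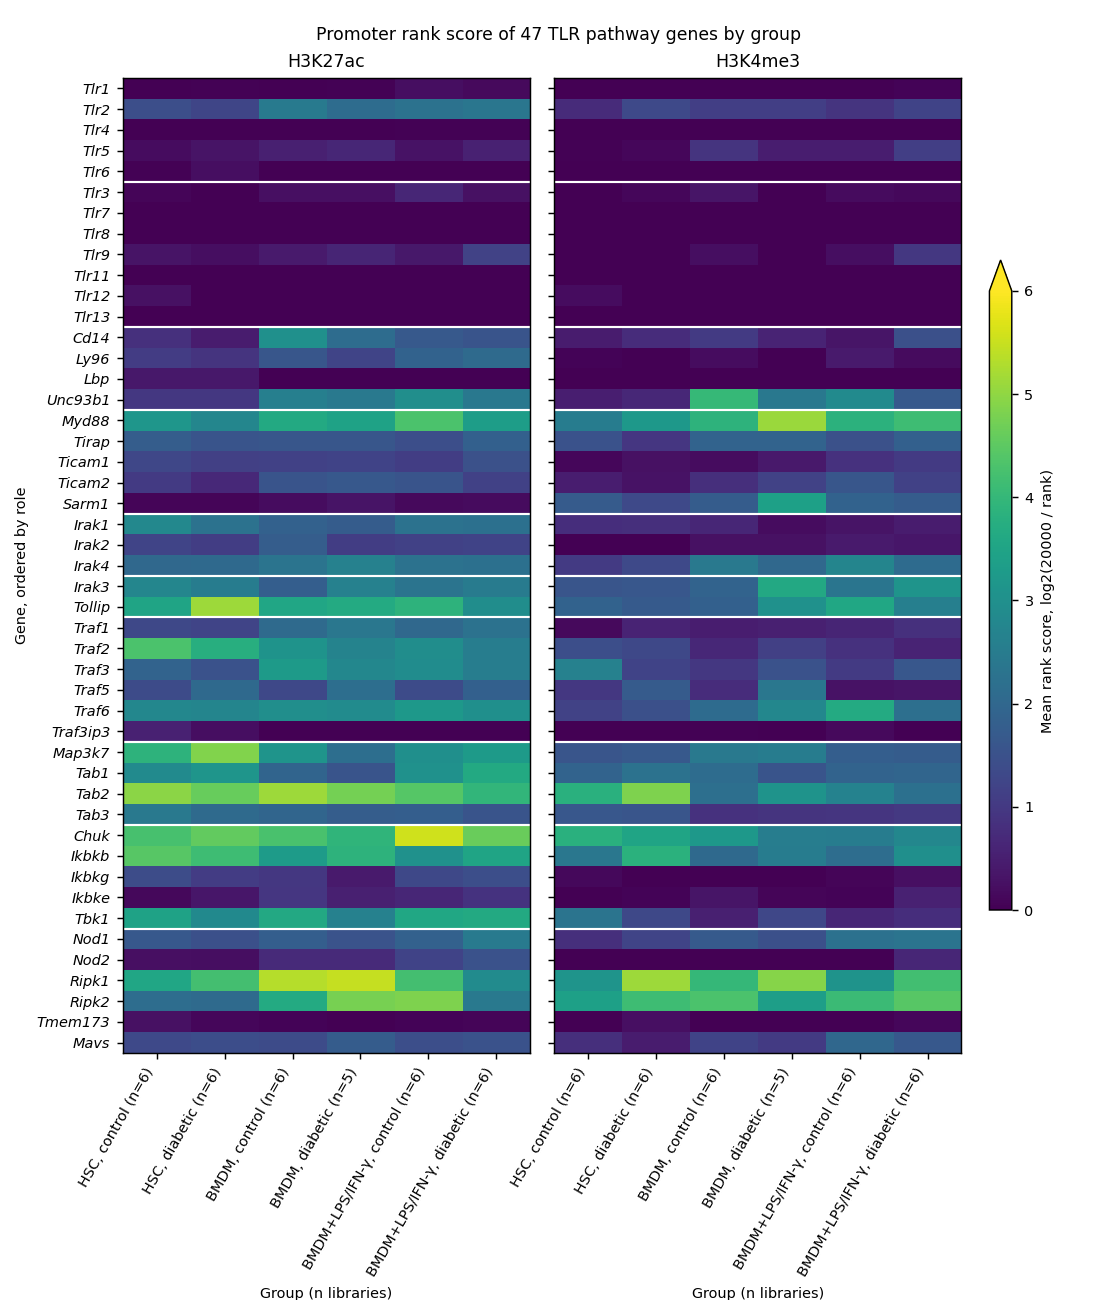
Mean rank score, log2(20000/rank), of the 47 members (rows, ordered by role) in each group of 5 or 6 libraries (columns) for H3K27ac and H3K4me3, with colour from 0 to 6 and 0 standing for a promoter outside the first 20000 peaks. Among the receptor rows at the top, Tlr4, Tlr7, Tlr8, Tlr11 and Tlr13 are at or near 0 in every column, while Myd88, Tollip, Tab2, Chuk and Ripk1 are high in every group in H3K27ac.

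Most of the receptor promoters ranked low or were unlisted. In H3K27ac, 9 of the 12 were among the first 20000 peaks in 15 or fewer of the 35 libraries, as were 4 of the 35 other members (Lbp, Sarm1, Traf3ip3 and Tmem173), and the 4 members never among them were all receptors. Tlr2 (chr3:83836272-83841767, GRCm38), the receptor for bacterial lipoproteins, was the 1 receptor whose promoter was among the first 20000 H3K27ac peaks of all 35 libraries. Its ranks ran from 4709 to 15366 with a median of 7738 in the 12 HSC libraries, from 829 to 8785 with a median of 5267 in the 11 unstimulated BMDM libraries, and from 1110 to 8116 with a median of 4598.5 in the 12 stimulated ones. The ranges overlapped, with the BMDM ranks shifted towards the top of the list. Tlr2 peak summits lay inside the gene in all of these libraries, at a median of 223 bp past the start in HSC and 298 bp in unstimulated BMDM.

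Of the other surface receptors, Tlr4 (chr4:66827584-66930284), the LPS receptor, was not among the first 20000 H3K27ac peaks in any HSC or unstimulated BMDM library and was so in 2 of 12 stimulated ones. At any rank it was listed in 7, 3 and 9 libraries of the 3 states, with best ranks of 24541, 21242 and 17697. In HSC the nearest of the first 20000 H3K27ac peaks lay a median of 1222133 bp from its promoter window. In H3K4me3 Tlr4 was never among the first 20000, and was listed in 1, 3 and 2 libraries. Tlr5, the flagellin receptor, was among the first 20000 H3K27ac peaks in 7 of 12, 9 of 11 and 8 of 12 libraries, at medians of 15986.5, 15362 and 16804, and in H3K4me3 in 2 of 12, 7 of 11 and 9 of 12. These Tlr5 counts did not pass the test between HSC and BMDM in either mark. Tlr1 and Tlr6, which pair with TLR2, were sparse: Tlr1 was among the first 20000 in 1, 3 and 3 H3K27ac libraries, and Tlr6 in 5 of 12 HSC libraries and none of the 23 BMDM libraries. For Tlr6, Fisher's exact test between HSC and unstimulated BMDM gave an unadjusted p of 0.0373 and an adjusted p of 0.0895. The Tlr6 peaks of the first 20000 were all in HSC, so these values are a description.

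Of the endosomal receptors, Tlr9, which binds CpG DNA, was among the first 20000 H3K27ac peaks in 8 of 12 HSC, 7 of 11 unstimulated and 9 of 12 stimulated libraries, at medians of 16185, 15529 and 14303.5. In H3K4me3 its promoter was so in 1, 1 and 5 libraries, whereas a peak of the first 20000 lay somewhere over the gene in 6 of 12, 6 of 11 and 12 of 12. Tlr3, the receptor for double-stranded RNA, was among the first 20000 H3K27ac peaks in 1 of 12 HSC, 5 of 11 unstimulated and 9 of 12 stimulated libraries, at medians of 41564, 23875 and 15260.5. The stimulated Tlr3 ranks were 10540, 8663, 9916, 50969, 16418 and 14336 in control BMDM. In diabetic BMDM they were 14654, 16069, 25336, 13672 and 15867 with 1 library unlisted. Stimulated BMDM were not tested against HSC, and Tlr3 was not called between unstimulated BMDM and HSC or by stimulation. Tlr12, which binds profilin of protozoa, was among the first 20000 in 4, 0 and 1 H3K27ac libraries, and Tlr13, a receptor for bacterial ribosomal RNA, in none, with listed peaks in 0, 3 and 3 libraries. Tlr7, Tlr8 and Tlr11 had no listed promoter peak of either mark in any library. Ordered by their H3K27ac levels in unstimulated BMDM, Tlr2 came first, and the ranges of Tlr5, Tlr9 and Tlr3 overlapped one another. Of the 3 others with a tested promoter, Tlr1 was among the first 20000 in 3 of 11 libraries, with ranks overlapping those of Tlr3. Tlr6 and Tlr12 were among them in none.

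**Figure D2:**
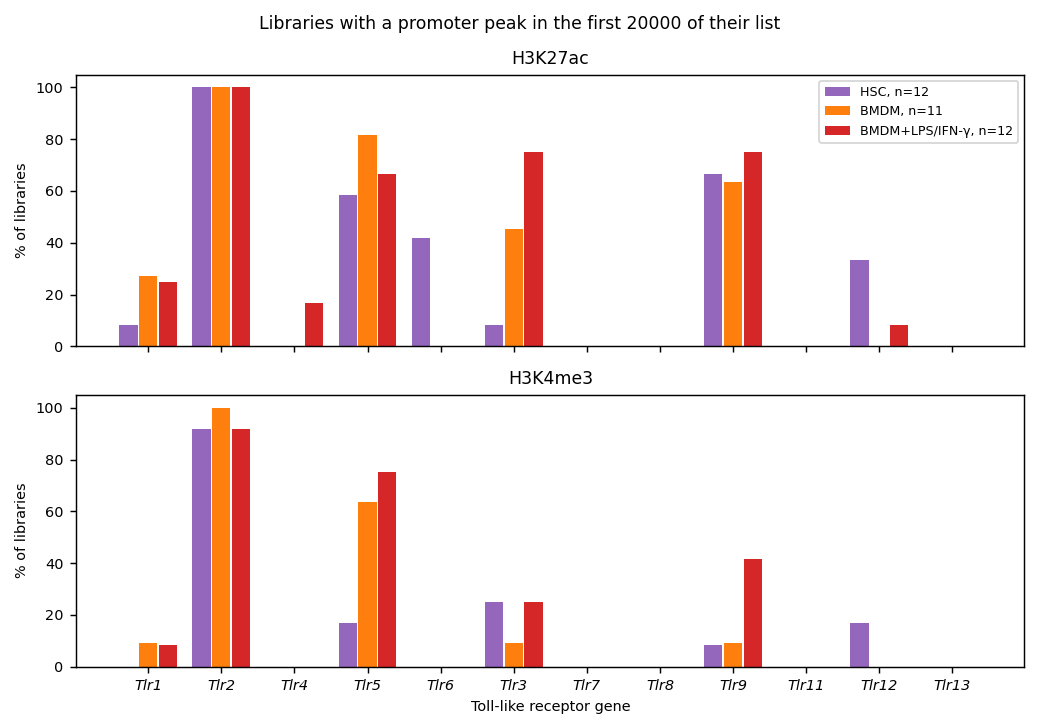
Share of libraries, in percent, with a promoter peak among the first 20000 for each of the 12 Toll-like receptor genes, by mark and cell state (12, 11 and 12 libraries, control and diabetic together). Tlr2 is at 100% in all 3 states in H3K27ac, Tlr3 goes from 1 of 12 to 9 of 12 libraries, and Tlr7, Tlr8, Tlr11 and Tlr13 are at 0 throughout.

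The comparison of unstimulated BMDM with HSC asks which member promoters differ between the progenitor fraction and macrophages grown from bone marrow. In H3K27ac, 42 members could be tested and 14 were called by limma at an adjusted p under 0.05, which is 33.3% of them, against 34.1% of all 13085 promoters tested. The direction was 9 higher in BMDM and 5 lower, against 11.3% and 22.8% of all promoters. Of the 5 lower, Lbp and Traf3ip3 had a rank score above 0 in fewer than 5 libraries outside HSC and so entered the test only through the group where they were high. Their values are given as a description, and 3 lower members remain without them. The same held for 15.4% of all promoters called lower and for 1.83% of those called higher. The median difference in rank score was 0.13 over the 42 members and −0.14 over all promoters. At an unadjusted p under 0.05 there were 17 members. Ranking peaks by fold enrichment in place of −log10 p left 6 members called, and scoring each promoter by its percentile among promoters gave 18, of which 13 were higher and 5 lower. That percentile scale also moved the split over all promoters from 1473 higher and 2984 lower to 2216 and 2410, so the balance of directions depends on the scale.

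Of the co-receptors and chaperone, Cd14 and Unc93b1 were higher in BMDM. Cd14 (chr18:36725067-36726798), which hands LPS to TLR4, had H3K27ac ranks from 6778 to 39284 with a median of 13048 in HSC and from 44 to 15333 with a median of 4927 in unstimulated BMDM. The Cd14 difference was 1.93 in rank score (SE 0.502, adjusted p = 0.00264), and the rank of 44 in control BMDM library 1 stood far above the next, 1755. Unc93b1 (chr19:3935186-3949340), the chaperone of the endosomal receptors, ranked from 6588 to 30435 in HSC with a median of 9445.5. In unstimulated BMDM it ranked from 845 to 6108 with a median of 4440, so that every BMDM library was above every HSC library. The Unc93b1 difference was 1.54 (SE 0.313, adjusted p = 0.00019). Among all promoters tested, 1.54% had BMDM ranks wholly above the HSC ranks in this way.

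Lbp, the serum protein that extracts LPS for CD14, had its ranked peaks in HSC. It was among the first 20000 H3K27ac peaks in 8 of 12 HSC libraries, with a best rank of 11056 and a worst of 31905, and in none of 11 BMDM libraries, where the best rank was 40515 and 5 libraries had no peak. The difference in rank score was −0.38. In Fisher's exact test of occupancy, which called 30.7% of promoters, Lbp was the 1 member called among 12 whose counts could reach the threshold. Its peaks of the first 20000 were all in HSC, so this too is a description. HSC ranks lay wholly above the BMDM ranks, as at Lbp, for 1.74% of promoters. Ly96, which encodes MD-2, was among the first 20000 in every library, with medians of 10416.5 in HSC and 8551 in BMDM, and was not called (difference 0.43, SE 0.255, adjusted p = 0.192). Among the receptors, Tlr2 was called (difference 0.94, SE 0.314, adjusted p = 0.0184), and none of the other 6 receptors tested was.

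**Figure D3:**
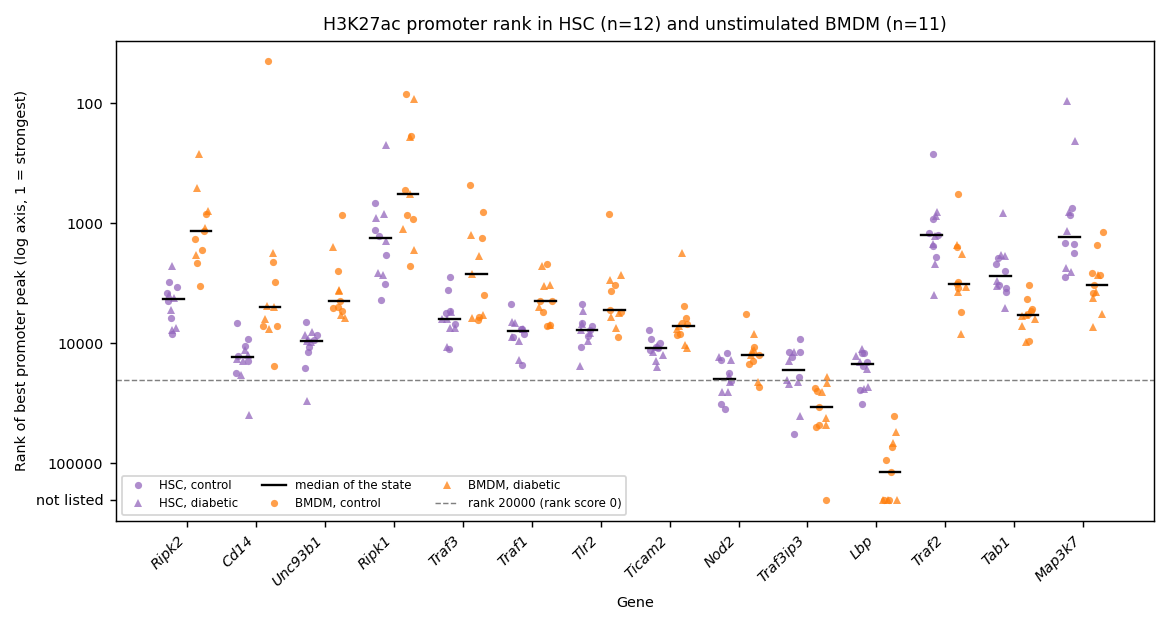
H3K27ac rank of the best promoter peak (log axis, strongest at the top) of the 14 called members in each HSC and unstimulated BMDM library, 1 point per library with circles for control and triangles for diabetic, a bar at the median, and unlisted libraries at the bottom. The BMDM points of Unc93b1 lie wholly above its HSC points and those of Lbp wholly below, and the other 12 members overlap.

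The adaptors and the receptor-proximal kinases changed little. Ticam2, or TRAM, the adaptor that links TLR4 to TRIF, was the 1 adaptor of 5 called. Its ranks ran from 7789 to 15590 with a median of 10808.5 in HSC and from 1769 to 10841 with a median of 7127 in BMDM (difference 0.75, SE 0.233, adjusted p = 0.0113). The central adaptor Myd88 was already near the top of the lists in HSC, at ranks of 550 to 6009 with a median of 2712, and at 85 to 5964 with a median of 3206 in BMDM (difference 0.60, SE 0.585, adjusted p = 0.454). Tirap, Ticam1 (TRIF) and Sarm1 differed by −0.06, −0.03 and 0.17 and were not called. None of the 3 IRAK kinases was called: Irak1 came nearest, at medians of 3887 in HSC and 4576 in BMDM (difference −0.74, SE 0.296, adjusted p = 0.0506), and Irak2 and Irak4 differed by 0.27 and 0.43. The inhibitors Irak3 (IRAK-M) and Tollip had differences of −0.42 and −0.71 and were not called. Tollip ranked from 305 to 2074 in HSC and from 849 to 3784 in BMDM, among the strongest member promoters in both.

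The TRAF group split in both directions. TRAF3 carries TRIF signals to TBK1, and its gene ranked from 2813 to 11164 with a median of 6267.5 in HSC and from 474 to 6369 with a median of 2630 in BMDM (difference 1.33, SE 0.399, adjusted p = 0.00897). Its H3K27ac peak, which covers the printed stretch, was the widest of the members. Traf1, which encodes a regulator of TRAF2 signalling, ranked from 4652 to 14997 in HSC and from 2187 to 7170 in BMDM (difference 0.96, SE 0.239, adjusted p = 0.00171). Both were higher in BMDM with partly overlapping ranges. Traf2, whose protein joins TNF receptor signalling, was lower in BMDM, with ranks from 264 to 3938 and a median of 1252 in HSC and from 571 to 8371 with a median of 3203 in BMDM (difference −1.13, SE 0.44, adjusted p = 0.0425). Leaving out single libraries ended this call in 13 of 23 cases, and the replicate block, ranking by fold enrichment and testing without a filter each ended it too. Traf3ip3, which encodes a TRAF3-interacting protein, was among the first 20000 in 7 of 12 HSC and 1 of 11 BMDM libraries, a difference of −0.38 in rank score. Traf6, the ligase downstream of MyD88, and Traf5 differed by 0.17 and 0.01 and were not called.

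In the TAK1 complex, 2 of 4 genes were lower in BMDM. TAK1, the kinase encoded by Map3k7 (chr4:31964097-32023467), activates IKK. The Map3k7 ranks were 1460, 1758, 1478, 748, 842 and 2794 in control HSC and 801, 95, 2338, 2525, 1157 and 205 in diabetic HSC. In unstimulated BMDM they were 1178, 3271, 2606, 3774, 1511 and 2663 in controls and 7258, 4196, 5667, 3721 and 2694 in diabetic animals. The Map3k7 difference was −1.72 (SE 0.519, adjusted p = 0.0091), with the diabetic BMDM lowest and the control groups overlapping. Tab1, which encodes the activator of TAK1, ranked from 811 to 5021 with a median of 2749 in HSC and from 3231 to 9696 with a median of 5822 in BMDM (difference −1.26, SE 0.452, adjusted p = 0.0284). Tab2 and Tab3 differed by 0.15 and −0.38 in H3K27ac and were not called. None of the 5 IKK-related genes was called: Chuk, Ikbkb, Ikbkg and Tbk1 differed by −0.30, −0.70, −0.53 and −0.02, and Ikbke was at 0.49 (adjusted p = 0.0707). Chuk and Ikbkb, which encode the catalytic IKK subunits, were among the strongest member promoters in both states, with HSC medians of 945 and 874.

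Among the cytosolic sensors and their kinases, 3 of 6 were called, all higher in BMDM. RIPK2 relays signals from the peptidoglycan sensors NOD1 and NOD2, and Ripk2 (chr4:16122733-16163647) had the largest difference of the members. In HSC its ranks were 8333, 3373, 3800, 6162, 3064 and 4384 in controls and 3914, 5230, 7756, 4208, 2253 and 7425 in diabetic animals. The unstimulated BMDM ranks were 2152, 836, 1346, 1155, 3324 and 1649 in controls and 1822, 502, 1092, 780 and 266 in diabetic animals. All but control BMDM library 5 stood above the best HSC library, and the difference was 2.11 (SE 0.47, adjusted p = 0.000543). Ripk1, a kinase of TRIF and TNF receptor signalling, had medians of 1329 in HSC and 571 in BMDM (difference 1.53, SE 0.596, adjusted p = 0.0438), a call that leaving out single libraries ended in 11 of 23 cases. Nod2 was among the first 20000 in 6 of 12 HSC and 9 of 11 BMDM libraries, with medians of 19621 and 12557 (difference 0.49, SE 0.183, adjusted p = 0.0361), and its call was ended in 12 of 23. Nod1, Mavs and Tmem173 (STING) differed by 0.11, 0.19 and −0.15 and were not called. The calls for Cd14, Unc93b1, Ripk2 and Traf1 held under every alternative in which they were tested and without any single library.

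**Figure D4:**
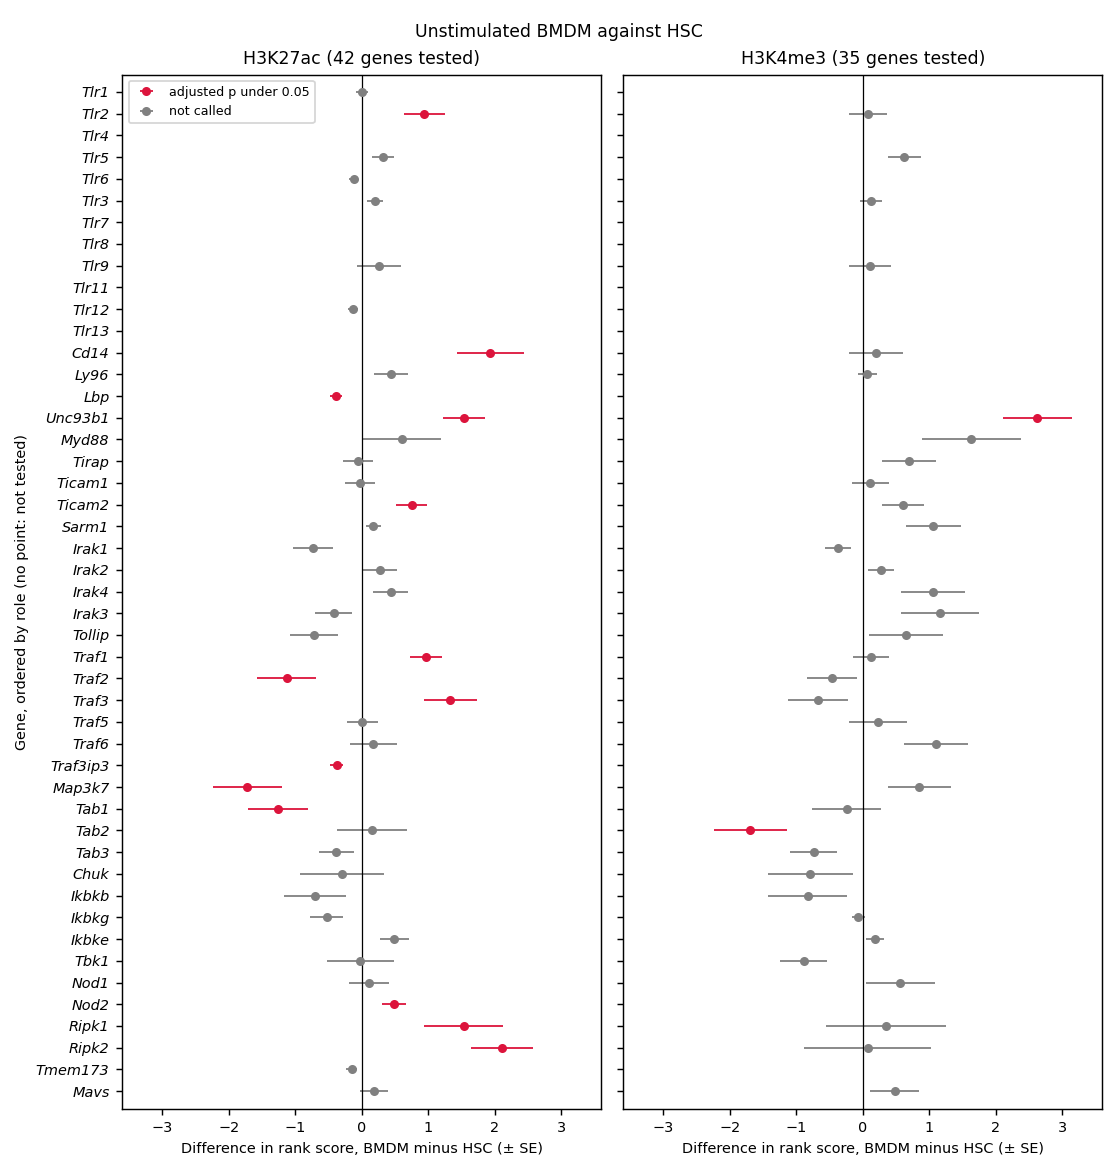
Difference in rank score between unstimulated BMDM and HSC (points, with 1 SE either side) for the members tested in H3K27ac (42) and H3K4me3 (35), in role order, with called members in red. In H3K27ac 9 called points lie to the right and 5 to the left, and in H3K4me3 Unc93b1 lies to the right and Tab2 to the left.

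The same comparison was made within each disease group. In controls 4 members were called (Cd14 and Unc93b1 higher, Lbp and Traf3ip3 lower), against 17.3% of all promoters, of which 5.3% were higher and 12.0% lower. In diabetic animals 7 were called (Ripk2, Unc93b1, Traf1 and Ticam2 higher, Map3k7, Tollip and Lbp lower), against 17.1%, of which 5.73% were higher and 11.4% lower. Lbp and Traf3ip3 are descriptions here too, as they entered the test only through HSC. In controls and in diabetic animals, Ripk2 differed by 1.53 and 2.70, Cd14 by 2.2 and 1.67, Unc93b1 by 1.62 and 1.45, and Traf3 by 1.38 and 1.27. Map3k7 differed by −0.75 and −2.69 and Tollip by 0.03 and −1.46, and the disease by cell state interaction was not called for any member. Without control BMDM libraries 5 and 6, 14 members were again called in the pooled comparison, against 31.7% of all promoters. Ripk2 (higher) and Tab1 (lower) then also had ranks that did not overlap, as had 2.09% and 2.22% of all promoters in these directions. Within controls, leaving out these libraries gave 5 called members, 4 higher and 1 lower, against 13.8% of all promoters.

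H3K4me3 separated the 2 cell states at fewer members. Of 35 tested, 2 (5.71%) were called, 1 higher and 1 lower in BMDM, against 12.5% of 14179 promoters (4.77% higher, 7.75% lower), and 9 had an unadjusted p under 0.05. Unc93b1 was higher in BMDM in this mark too. Its H3K4me3 ranks were 11878, 11031, 16308, 15065, 18040 and 13180 in control HSC and 14545, 17875, 12176, 14953 and 4022 in diabetic HSC, with 1 library unlisted. In BMDM they were 3549, 80, 2065, 5826, 574 and 1701 in controls and 4376, 2515, 6356, 949 and 11606 in diabetic animals. Apart from diabetic HSC library 5 and diabetic BMDM library 6, the ranks of the 2 cell states did not overlap, and the Unc93b1 difference was 2.62 (SE 0.521, adjusted p = 0.00196). Tab2, which encodes the ubiquitin-binding partner of TAK1, was lower in BMDM: it ranked from 47 to 2517 with a median of 1419.5 in HSC and from 928 to 9765 with a median of 4774 in BMDM (difference −1.69, SE 0.546, adjusted p = 0.0366). Without control BMDM libraries 5 and 6 the Tab2 call was lost (adjusted p = 0.0698) and that of Unc93b1 was kept (adjusted p = 0.00998). In controls the number of peaks in a list moved with cell state in this mark, at 37378 to 109214 in HSC and 81003 to 212718 in unstimulated BMDM. In diabetic animals it ran from 13730 to 145750 in HSC and, within that range, from 66146 to 137710 in unstimulated BMDM. With the number of peaks as a covariate no member was called by limma (3 at an unadjusted p under 0.05). By occupancy, Fisher's exact test called 0 of 11 members, against 2.8% of promoters. At an unadjusted p under 0.05 there were 3 (Tlr5, Irak1 and Irak2), against 847 of 4113 promoters.

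The marks did not rank the same members. Ripk2, with the largest H3K27ac difference, differed by 0.07 (SE 0.957) in H3K4me3, where its ranks ran from 22 to 7823 in HSC and from 84 to 7999 in BMDM. Map3k7 differed by 0.85 (SE 0.476) and Traf3 by −0.68 (SE 0.45) in H3K4me3, against −1.72 and 1.33 in H3K27ac. The difference between marks was not tested. At Ripk2 the summits lay a median of 373 bp (H3K27ac) and 344 bp (H3K4me3) past the start in HSC, and 380 bp and 360 bp in unstimulated BMDM. At other members the summits of the 2 marks lay on opposite sides of the start: in HSC the medians were 149 and −221 bp at Myd88 and 147 and −290 bp at Irak4, and in unstimulated BMDM they were −355 and 339 bp at Tab2.

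Beyond the members, 47 further genes of the pathway were listed, and 42 were tested in H3K27ac. Of these, 17 (40.5%) were called between BMDM and HSC, 11 higher and 6 lower, against 34.1% of all promoters (11.3% higher, 22.8% lower). The largest were Nfkbia, the inhibitor of NF-κB (3.63, SE 0.57, adjusted p = 4.18e-06), Irf5, an interferon regulatory factor downstream of MyD88 (3.33, SE 0.377, adjusted p = 7.12e-09), and the transcriptional repressor Atf3 (3.21, SE 0.545, adjusted p = 1.51e-05). Lower in BMDM were, with the largest differences, Sharpin, a subunit of the linear ubiquitin ligase (−1.46), Ube2v1, a cofactor of the TRAF6 ubiquitin ligase (−1.24), and Irf7 (−1.06). In H3K4me3, 3 of 41 (7.32%) were called, against 12.5% of all promoters: Pik3ap1 was higher by 1.33, and Mapk14 and Ube2v1 were lower (differences −2.20 and −1.88).

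The next comparison asks which member promoters respond to LPS with IFN-γ. No member was called in either disease group or mark by limma. In control BMDM H3K27ac, 0.0% of promoters were called, 1 member had an unadjusted p under 0.05, and the exact permutation test gave 0 such members. At that level the permutation test passed 406 of 13085 promoters. Without control BMDM libraries 5 and 6, limma called 0.588% of promoters and again no member. The largest differences were those of Cd14 (−1.35, SE 0.692, adjusted p = 0.942), Chuk (1.29, SE 0.87, adjusted p = 1.0) and Ripk2 (1.17, SE 0.649, adjusted p = 0.968). Cd14 ranked 44, 2101, 3078, 7129, 15333 and 7094 before and 7686, 6441, 4794, 7128, 5550 and 6492 after stimulation, so the stimulated libraries lay within the range of the unstimulated ones. Without control BMDM libraries 5 and 6, Cd14 was at −2.43 (adjusted p = 0.171) and Ripk2 at 0.39.

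In diabetic BMDM H3K27ac, 2.44% of promoters (0.764% higher, 1.67% lower) and none of the 42 members were called, 7 members had an unadjusted p under 0.05 by limma and 4 by the exact permutation test. At that level the permutation test passed 1609 of 13085 promoters. Ripk2 ranked 1822, 502, 1092, 780 and 266 before and 3888, 5251, 6644, 3369, 3585 and 1616 after stimulation. All stimulated libraries but the last were below every unstimulated one, and the difference was −2.35 (SE 0.68, adjusted p = 0.0519 by limma). This sat just outside the threshold and was called without control BMDM libraries 5 and 6 (adjusted p = 0.0358), which enter the fit through its shared estimate of spread. In control BMDM the stimulated Ripk2 ranks were 4600, 3347, 95, 656, 1083 and 114, spread to both sides of the unstimulated ones. Ripk1 ranked 1650, 191, 571, 1117 and 92 before and 5322, 1111, 8105, 4246, 2523 and 728 after (difference −2.58, SE 0.863, adjusted p = 0.0977), with overlap. Tab1 had the opposite sign, from 5822, 5878, 9696, 7095 and 6288 to 2124, 3536, 2290, 1873, 172 and 3077. All stimulated Tab1 libraries stood above all unstimulated ones, as for 1.04% of promoters, and the difference was 2.09 (SE 0.654, adjusted p = 0.0724). In control BMDM Tab1 ranked 9604, 5383, 5676, 5166, 3231 and 4243 before and 1717, 444, 21328, 2943, 6086 and 801 after, with 4 of 6 stimulated libraries above the best unstimulated one.

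**Figure D5:**
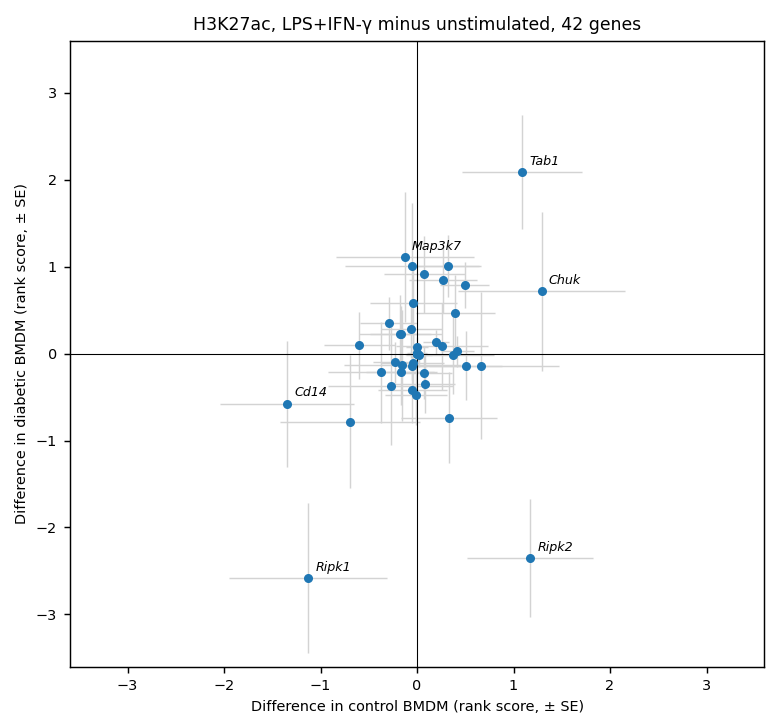
Difference in H3K27ac rank score between LPS+IFN-γ and unstimulated BMDM for the 42 members tested, in control (x axis) and diabetic (y axis) animals, with 1 SE either side. No member was called in either group; Ripk2 has a positive value in controls (1.17) and a negative one in diabetic animals (−2.35), while Tab1 lies above 0 and Ripk1 below 0 in both.

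For the stimulation by disease interaction in H3K27ac, the largest value was that of Ripk2 (−3.52, SE 0.94, adjusted p = 0.634 by limma). No promoter was called for this interaction (0.0%), and without control BMDM libraries 5 and 6 the Ripk2 interaction was −2.73 (adjusted p = 1.0). Ripk2 was also the 1 member at an unadjusted p under 0.05, and Ripk1 (−1.45) and Map3k7 (1.24) came next. Nod2 is an example of a member whose stimulated ranks narrowed: they ran from 5711 to 23231 in unstimulated BMDM and from 4672 to 10905 after stimulation, with all 12 libraries then among the first 20000. Its difference was 0.79 in diabetic BMDM (SE 0.265, adjusted p = 0.0965). The width of the Nod2 peak had medians of 722 bp in unstimulated and 1313 bp in stimulated BMDM. Of the further pathway genes, 1 was called, Irf7, which drives type I interferon genes and rose in diabetic BMDM (1.44, SE 0.376, adjusted p = 0.0307).

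In H3K4me3, stimulation left no member called by limma either, with 2 members at an unadjusted p under 0.05 in controls and 4 in diabetic animals. The exact permutation test gave 1 and 1, against 448 and 746 of 14179 promoters. All promoters were called at 0.0% and 0.00705%. In controls the largest differences were Tollip (1.74, SE 0.761), Traf6 (1.57, SE 0.66) and Unc93b1 (−1.17), all at an adjusted p of 1.0. Without control BMDM libraries 5 and 6, Traf6 was at 0.50 and Tollip at 1.48. The stimulated ranks then lay wholly above the unstimulated ones at Tollip and wholly below them at Cd14, as for 1.11% and 1.05% of promoters. In diabetic BMDM the largest differences were Traf5 (−2.06, SE 0.633, adjusted p = 0.475), Sarm1 (−1.66, adjusted p = 0.549) and Ripk2 (1.07, adjusted p = 0.935). Traf5 ranked 8091, 938, 1245, 5500 and 15328 before and 12884, 21311, 17940, 19891, 15414 and 11232 after stimulation, with 1 unstimulated and 2 stimulated libraries in overlap. For the interaction in this mark the largest values were Tollip (−2.20), Traf6 (−2.15) and Sarm1 (−1.8). No member and 0.0% of promoters were called. At an unadjusted p under 0.05 by limma there were 4 members, given without the share over all promoters.

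The comparison of diabetic with control animals asks whether diabetes left a mark on these promoters in the progenitors or in macrophages grown from them in 5 mmol/L glucose. No member was called by limma in any of the 6 comparisons. All promoters were called at 0.0% in H3K27ac HSC, unstimulated BMDM and stimulated BMDM. In H3K4me3 the shares were 0.0%, 0.00705% and 0.0%. Members with an unadjusted p under 0.05 numbered 5, 2 and 2 in H3K27ac and 2, 3 and 2 in H3K4me3 by limma, and 3, 3 and 2 and 0, 2 and 0 by the exact permutation test. At that level the permutation test passed 348, 456 and 338 of 13085 promoters in H3K27ac. In H3K4me3 it passed 436, 474 and 685 of 14179. Simulated shifts of 2 in rank score were recovered for 68% of genes in the H3K27ac HSC comparison and for 9% in the H3K4me3 one. Shifts of 1 were recovered for 12% and 0%. A change of either size could thus have gone uncalled in both marks. Many genes were shifted at once in the simulations, which makes each easier to call after adjustment. Almost no promoter was called here, so these shares may be too high for the real comparisons.

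In H3K27ac HSC the largest difference was that of Tollip, which ranked 1371, 1951, 1725, 2074, 1984 and 1545 in controls and 305, 591, 1452, 525, 833 and 316 in diabetic animals. Of the 6 diabetic libraries, 5 stood above every control (difference 1.61, SE 0.498, adjusted p = 1.0; exact permutation p = 0.00433). Map3k7 (1.00, adjusted p = 1.0) and Traf5 (0.68, exact permutation p = 0.0173) followed. Traf5 encodes a TRAF of TNF receptor signalling, and in unstimulated BMDM its ranks were 1530, 6425, 5554, 5238 and 6041 in diabetic and 8649, 10955, 7388, 6661, 6674 and 9727 in control animals. All diabetic Traf5 libraries stood above all controls, as for 0.183% of promoters (difference 0.88, SE 0.333, adjusted p = 0.884; exact permutation p = 0.00216, the smallest this design gives). Without control BMDM libraries 5 and 6 the Traf5 ranks still did not overlap, and 0.673% of promoters then separated in this direction. Diabetic library 1 stood apart at Traf5, and without it the difference was 0.50 (SE 0.309, adjusted p = 0.967). This gene was singled out after its values were seen. The largest differences there were Ripk2 (1.11, adjusted p = 0.95), Tbk1 (−1.0, adjusted p = 0.981) and Map3k7 (−0.94, adjusted p = 0.984). In stimulated BMDM they were Ripk2 (−2.41, SE 0.649, adjusted p = 1.0), Ripk1 (−1.32) and Myd88 (−0.98), with a Ripk2 value of −1.91 without control BMDM libraries 5 and 6. Without those libraries the diabetic Tollip ranks in stimulated BMDM lay wholly below the control ones, as for 0.176% of promoters. The disease by cell state interaction reached 1.94 at Map3k7, 1.48 at Tollip and −1.17 at Ripk2. No member and 0.0% of promoters were called for it. At an unadjusted p under 0.05 by limma there was 1 member, given without the share over all promoters.

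In H3K4me3 the largest differences between diabetic and control animals were those of Ripk1 (2.02), Ikbkb (1.43) and Traf3 (−1.43) in HSC, Irak3 (1.70), Sarm1 (1.66) and Traf5 (1.63) in unstimulated BMDM, and Traf6 (−1.47), Unc93b1 (−1.18) and Ripk1 (1.12) in stimulated BMDM, with adjusted p-values from 0.734 to 1.0. The disease by cell state interaction in this mark was led by Sarm1 (−2.07), Traf3 (−1.95) and Unc93b1 (1.8). No member and 0.0% of promoters were called for it. At an unadjusted p under 0.05 by limma there were 3 members, given without the share over all promoters. Comparisons within a disease group or cell state share libraries, so their values are not independent of one another.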

How the data were processed

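ChIP-seq with 50 bp reads was made from 70 H3K27ac and H3K4me3 libraries. The authors deposited 1 peak list per library, called against an input library, with 3 kinds of values used here: the −log10 p, the fold enrichment and the −log10 q of each peak. The score column the authors deposited was not used, being made from the q. The submitters' processing notes name Trim Galore 0.3.3, cutadapt 1.8, FastQC 0.11.3, Bowtie2 2.2.6, Picard 2.19.2 and 2.18.14, bedtools 2.19.1 and MACS2 2.2.7.1 on GRCm38. The 36 input samples had no list.

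Groups came from the sample labels. Summits of one interval were merged at their largest −log10 p, and promoters were windows of 1000 bp either side of GENCODE M21 start sites. limma 3.58.1 (R 4.3.3) fitted group means over the 35 libraries of a mark, for promoters with a rank score above 0 in at least 5 of them. P-values were adjusted by Benjamini-Hochberg over all promoters tested, and a call is an adjusted p under 0.05. Counts of members at an unadjusted p under 0.05 by limma are given without their share over all promoters. Permutation tests were exact and two-sided. The smallest p they allow is 0.00216 for 5 against 6 libraries. Fisher's exact test compared occupancy. Whether libraries come from separate animals is taken from the replicate numbers, so p-values measure the spread between these libraries. Tests were tried on simulated data: at a shift of 2 in rank score, 79% of changed genes were recovered in the H3K27ac and 42% in the H3K4me3 comparison of cell states. At a shift of 1 these shares were 35% and 1%. The changed genes were many, were shifted at once and were taken from promoters with mean scores well above 0. Simulated scores had normal noise and no floor at 0, unlike the real ones.

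All members were accounted for. Called members were named, or the 3 with the largest differences where none was called, and each of the 12 Tlr genes was given by state. Further pathway genes were counted, with up to 5 called ones named. Members and lists were chosen with earlier results of these data known. Alternatives changed the number of ranks, the window, the start site, the overlap, the ranking value, the scale, the filter, the covariate, the libraries and the block.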

Additional observations from a re-analysis of the deposited data

Results flagged for a closer look

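Dixon's test was run on 198 sets of 5 or 6 libraries, and in 19 of them 1 library stood apart from the others of its group. Chance gives about 1 in 20 for normal values, which scores cut off at 0 are not. Where 1 library alone was above 0, as at Traf3ip3, the cut-off itself set it apart. In H3K27ac, unstimulated diabetic BMDM library 1 stood apart at 4 members, with rank scores of 7.88 at Myd88 (others 1.75 to 2.87), 3.5 at Ticam2 (0.884 to 1.49), 3.71 at Traf5 (1.64 to 1.93) and 0.0825 at Traf3ip3 (all others 0). In unstimulated control BMDM, library 1 had 8.83 at Cd14, the rank of 44, against 0.383 to 3.25. In stimulated control BMDM, library 3 had 1.99 at Nod2 (0.875 to 1.16), library 4 had 6.21 at Tollip (3.1 to 3.55) and library 5 had 0.092 at Traf3ip3 (all others 0). In stimulated diabetic BMDM, library 5 had 6.86 at Tab1 (2.5 to 3.42), library 4 had 5.85 at Tbk1 (2.73 to 3.9) and library 3 had 4.95 at Traf3 (1.54 to 2.46).

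In HSC, control library 5 had an H3K27ac rank score of 6.24 at Traf2 (others 3.38 to 4.43), and diabetic library 6 was at 0 for Unc93b1, where the others ran from 1.05 to 1.33. In H3K4me3, stimulated control BMDM library 1 had 5.8 at Irak3 (1.21 to 2.71), stimulated diabetic BMDM library 3 had 3.8 at Traf3 (0.712 to 1.8), and unstimulated control BMDM library 4 had 2.73 at Traf5 (0 to 0.956). Diabetic HSC library 1 was at 0 for Sarm1 (1.24 to 1.98) and library 5 had 2.31 at Unc93b1 (0 to 0.716). Unstimulated diabetic BMDM library 6 had 25 members among its first 20000 H3K4me3 peaks, against 28 to 29 in the others. Stimulated diabetic BMDM library 3 was high at Traf3 in both marks.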

How the results depend on the processing

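No difference changed sign among the named results. The 14 members called in H3K27ac between BMDM and HSC became 6 when peaks were ranked by fold enrichment and ran from 11 to 15 without single libraries, and the replicate block gave 14 with Traf2 lost. The 2 called in H3K4me3 became 1 by fold enrichment, 0 with peak number as a covariate, 1 in a fit of the groups compared alone, 1 without control BMDM libraries 5 and 6, and 1 to 3 without single libraries; the block gave 2. For stimulation of diabetic BMDM in H3K27ac the 0 became 1 without control BMDM libraries 5 and 6, against 2.76% of all promoters. It became 1 with the 5′-most start site, 2 on the percentile scale and 0 to 1 without single libraries (unstimulated 1 or stimulated 6). These last counts are given without their share over all promoters. By Fisher's exact test, the 1 H3K27ac occupancy call was 0 of 6 members in whole lists, against 397 of 4181 promoters. It was 3 of 7 in the first 10000 peaks, against 1214 of 3298 promoters. At a q of 0.01 or less it was 0 of 6, against 399 of 4206. The 0 of H3K4me3 was 1 of 18 in the first 10000, against 241 of 6707. The cause was not tested. Other stimulation and disease counts stayed at 0. No label ties equal replicate numbers, and in no pair of groups did every same-numbered pair correlate above 0.1 in its deviations, so the block was not taken as a pairing. Between unstimulated and stimulated BMDM some did: in H3K27ac r ran from −0.211 to 0.256 in controls (3 of 6 above 0.1) and from 0.0531 to 0.354 in diabetic animals (3 of 5), and 3 libraries in each correlated best with their own number. Over all pairs of groups and both marks r ran from −0.275 to 0.354.

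Over all promoters, the 4457 H3K27ac calls between cell states became 2630 by fold enrichment. The 1776 H3K4me3 calls (677 higher, 1099 lower) became 851 in the first 10000 ranks, 390 (31 and 359) by fold enrichment, 198 (32 and 166) with peak number, 2714 (1497 and 1217) on the percentile scale, 1762 (926 and 836) in a fit of the groups compared, and 1149 without control BMDM 5 and 6. Depth is unknown, which limits any statement that a promoter lacks a mark.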
